A study of Mus musculus with 3 samples.

Results

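The 10 genes described here encode receptors of the tumour necrosis factor (TNF) receptor superfamily: Cd40, Tnfrsf4, Tnfrsf9, Tnfrsf1a, Tnfrsf1b, Tnfrsf11a, Tnfrsf12a, Tnfrsf21, Fas and Ltbr. They were taken by name, with every probe set that the array annotation assigns to exactly 1 of them, which gave 18 probe sets for 10 of the 17886 genes on the arrays. Transcripts were measured in dendritic cells (DCs) grown from wild-type mouse bone marrow with granulocyte-macrophage colony-stimulating factor over a culture of 5 days, and sorted by flow cytometry on PDL2, the ligand of PD-1 encoded by Pdcd1lg2. The 3 groups were untreated PDL2-negative cells, PDL2-negative cells given lipopolysaccharide (LPS, a bacterial product sensed by Toll-like receptor 4) at 100 ng/ml, and untreated PDL2-positive cells. Strain, sex, age, pooling of mice and the length of the LPS treatment are not given in the sources used here. Each group had 1 array, so differences are given as sizes with no test and no check in replicates, and the number of arrays limits the precision.

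Most receptors of this superfamily bind trimeric ligands of the TNF superfamily through cysteine-rich repeats outside the cell. One branch, which includes CD40, OX40 (Tnfrsf4), 4-1BB (Tnfrsf9), RANK (Tnfrsf11a), TNFR2 (Tnfrsf1b), Fn14 (Tnfrsf12a) and the lymphotoxin beta receptor (Ltbr), recruits TRAF adaptors and activates NF-kB. The other carries a cytoplasmic death domain and includes TNFR1 (Tnfrsf1a), Fas and death receptor 6 (Tnfrsf21). In DCs the branch that binds TRAFs is best known through CD40, by which T cells that bear CD40 ligand license DCs to prime other T cells.

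Values are log2 signals after quantile normalization, and a signal at or below the median of all values, 5.58, was treated as a floor. A gene is called higher or lower where 2 arrays differed by at least 2-fold, which is 1 on the log2 scale. The only error that could be measured is the disagreement between probe sets of a gene on the same arrays, which leaves out error between arrays. It was taken where a gene's 2 brightest probe sets both exceeded the floor on each array compared. Their log2 differences disagreed with a robust SD of 0.41 in the LPS comparison and 0.29 in the PDL2 comparison. Between PDL2-positive and LPS-treated cells the robust SD was 0.44. Pdcd1lg2 stood at 8.40, 9.44 and 11.73 on the untreated PDL2-negative, LPS-treated and PDL2-positive arrays, the order in which all values below are given. All 6 DC markers listed were above the floor on every array, among them Itgax (11.48, 10.80 and 9.81), the class II gene H2-Ab1 (14.29, 14.18 and 13.84) and the DC factor gene Zbtb46 (7.08, 7.50 and 9.44). The DC markers also differed between arrays, as Ccr7 read 7.74, 12.37 and 14.01 and Flt3 read 7.51, 7.31 and 9.40. In PDL2-positive against untreated PDL2-negative cells, 3 of the 6 were higher and 1, Itgax, was lower. The populations differed in markers of other cell types as well. All 6 macrophage markers measured, of 7 listed, were lower in PDL2-positive than in untreated PDL2-negative cells, and the log2 of their summed signal was 15.01, 14.68 and 10.26. The 3 monocyte markers measured, of 4, summed to 11.85, 11.63 and 8.67. The 6 neutrophil and granulocyte precursor markers measured, of 7, summed to 14.13, 12.90 and 14.13. Among lymphocyte markers, Cd3d, Cd3g, Cd79a, Ms4a1 and Ncr1 were below the floor on all 3 arrays and Cd3e lay between 6.17 and 6.29. In such bulk samples fewer cells of a type and less RNA per cell cannot be told apart.

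All 10 receptor genes were above the floor on all 3 arrays. Cd40, Tnfrsf9, Fas and Tnfrsf1b were higher after LPS, and Tnfrsf9, Tnfrsf4, Fas, Tnfrsf11a and Cd40 were higher in untreated PDL2-positive cells. Tnfrsf21 was lower in both, Tnfrsf1a was lower in PDL2-positive cells, and Ltbr and Tnfrsf12a stayed within 2-fold throughout. In counts, 4 of 10 receptors were higher after LPS against 9.17% of all genes tested, and 1 was lower against 13.8%. In PDL2-positive cells 5 of 10 were higher against 10.1% of all genes, and 2 lower against 13.0%. The median log2 difference over the 10 receptors was 0.64 for LPS treatment and 1.27 for the PDL2 comparison, beside 0.02 and 0.01 over all genes tested. Both comparisons share the untreated PDL2-negative array. The receptors and the gene lists below were chosen with earlier results of these data known. Counts and medians over them are therefore descriptions and not tests.

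**Figure D1:**
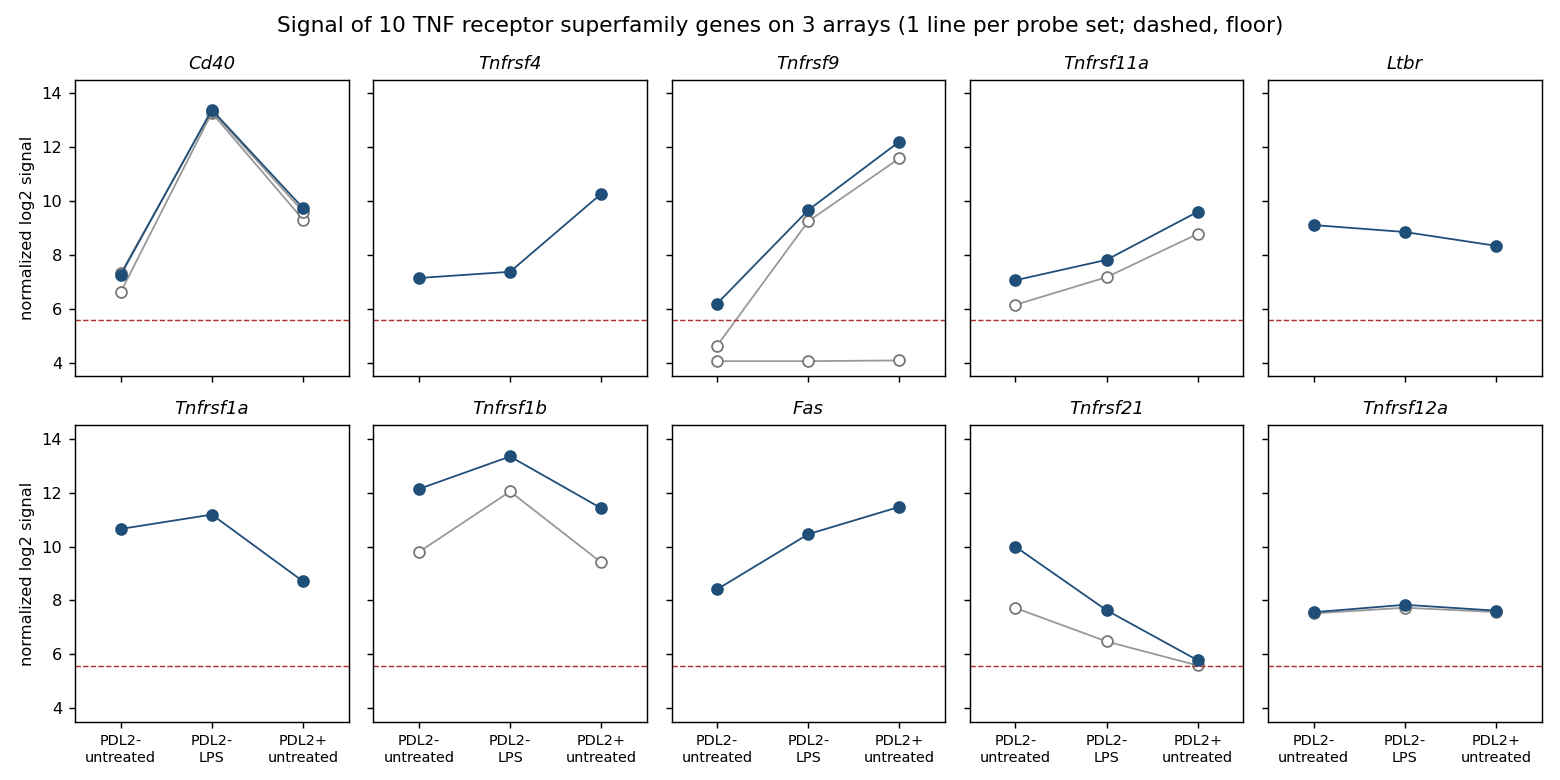
Normalized log2 signal (vertical axis) of each receptor gene on the 3 arrays (horizontal axis), with 1 line per probe set. Filled circles mark the probe set with the highest mean signal, which stands for the gene, open circles the other sets, and the dashed line the floor of 5.58. Cd40 peaks at 13.39 after LPS, Tnfrsf9 at 12.21 in PDL2-positive cells, and Tnfrsf21 lies at 5.78 in PDL2-positive cells, just above the floor.

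Cd40, Tnfrsf4 and Tnfrsf9 are costimulatory receptors. The Cd40 signal was 7.26, 13.39 and 9.74. Cd40 was thus highest after LPS, intermediate in PDL2-positive cells and lowest in untreated PDL2-negative cells. LPS put it 70.0-fold higher, rank 10 of 11000 genes from the top, and PDL2-positive cells had 5.60 times the untreated PDL2-negative signal, rank 276 of 10926. The other 2 probe sets of Cd40 gave log2 differences of 6.03 and 6.65 after LPS and 2.30 and 2.69 in PDL2-positive cells, so all 3 sets gave the same calls.

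Tnfrsf9 encodes 4-1BB, a receptor best known on activated T and NK cells. Its signal was 6.20, 9.67 and 12.21. It was therefore lowest in untreated PDL2-negative cells and highest in PDL2-positive cells, the reverse of the order of Cd40 between the LPS-treated and PDL2-positive arrays. The gene was 64.4-fold higher in PDL2-positive than in untreated PDL2-negative cells, rank 9 of 10926 genes, and 11.1-fold higher after LPS, rank 145 of 11000. A second probe set was below the floor in untreated PDL2-negative cells (4.64) and read 9.25 and 11.59 on the other arrays, which is at least 12.8-fold and at least 64.3-fold higher. The third set lay between 4.06 and 4.09, below the floor on every array, so it gives no difference.

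Tnfrsf4 encodes OX40, another receptor best known on activated T cells. Its single probe set read 7.14, 7.37 and 10.27. Tnfrsf4 was 8.72-fold higher in PDL2-positive than in untreated PDL2-negative cells, rank 173 of 10926. The LPS difference was 0.23 after normalization and 0.01 in the deposited values, so the LPS-treated and untreated arrays did not differ by 2-fold. T cells bear both OX40 and 4-1BB. Of the 3 T cell markers measured, of 4 listed, Cd3d and Cd3g were below the floor on all 3 arrays and Cd3e read 6.17, 6.29 and 6.19; the part of T cells in these differences was not tested.

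Promoter windows from RefSeq (GRCm38.p6, 250 bases before to 50 after a transcript start) were at hand for 9 of the 10 receptors. Cd40 had no window and was not searched. There were 10 windows in all, since Tnfrsf9 has 2 annotated starts. They are shown for Tnfrsf9, Tnfrsf4, Fas and Tnfrsf11a, the receptors that were highest in PDL2-positive cells, to set their starts side by side. Each was searched on both strands for a form of the NF-kB site (GGG, then any pair of bases, then TT, any base and CC), and capitals mark the match. Tnfrsf9 upstream start is chr4:150919905-150920204 and Tnfrsf9 downstream start is chr4:150927749-150928048, Tnfrsf4 is chr4:156013445-156013744, Fas is chr19:34290409-34290708, and Tnfrsf11a is chr1:105780473-105780772, all on the plus strand.
Tnfrsf9 upstream start: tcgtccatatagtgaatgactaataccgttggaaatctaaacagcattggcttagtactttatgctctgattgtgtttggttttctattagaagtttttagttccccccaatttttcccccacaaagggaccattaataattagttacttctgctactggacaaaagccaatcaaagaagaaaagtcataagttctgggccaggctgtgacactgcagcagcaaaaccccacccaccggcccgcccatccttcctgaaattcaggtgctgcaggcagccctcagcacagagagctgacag
Tnfrsf9 downstream start: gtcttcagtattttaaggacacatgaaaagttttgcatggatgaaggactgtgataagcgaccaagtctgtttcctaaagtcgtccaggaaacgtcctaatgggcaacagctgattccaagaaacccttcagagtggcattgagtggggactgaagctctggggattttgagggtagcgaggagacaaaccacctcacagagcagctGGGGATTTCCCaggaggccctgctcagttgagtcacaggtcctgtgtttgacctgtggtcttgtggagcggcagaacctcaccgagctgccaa
Tnfrsf4: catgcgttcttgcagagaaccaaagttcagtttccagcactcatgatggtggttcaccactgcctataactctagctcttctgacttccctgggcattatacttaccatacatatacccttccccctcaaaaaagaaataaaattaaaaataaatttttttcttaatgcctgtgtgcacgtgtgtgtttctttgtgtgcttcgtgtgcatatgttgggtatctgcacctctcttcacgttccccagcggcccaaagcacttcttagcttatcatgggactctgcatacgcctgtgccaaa
Fas: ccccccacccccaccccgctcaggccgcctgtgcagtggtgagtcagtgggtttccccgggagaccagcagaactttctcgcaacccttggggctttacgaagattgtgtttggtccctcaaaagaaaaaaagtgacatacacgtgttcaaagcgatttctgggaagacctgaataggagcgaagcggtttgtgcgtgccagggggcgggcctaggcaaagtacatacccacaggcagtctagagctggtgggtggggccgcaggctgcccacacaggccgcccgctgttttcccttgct
Tnfrsf11a: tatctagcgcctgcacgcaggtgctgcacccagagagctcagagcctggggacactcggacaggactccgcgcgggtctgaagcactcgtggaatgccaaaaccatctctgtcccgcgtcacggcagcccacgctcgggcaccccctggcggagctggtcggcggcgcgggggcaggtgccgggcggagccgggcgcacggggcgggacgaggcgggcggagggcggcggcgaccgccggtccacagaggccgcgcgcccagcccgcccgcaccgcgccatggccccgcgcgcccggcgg

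Of the 10 receptor windows, 1 held the motif, the downstream start of Tnfrsf9, with 2 overlapping matches that begin 43 and 42 bases before the start. Over all 32851 windows of this length, 4.79% held it. The windows differ widely in base composition. Tnfrsf4 and the upstream start of Tnfrsf9 were 43.7% and 45.3% G or C, with 6 and 4 CG dinucleotides, Fas was 59.0% G or C with 14, and Tnfrsf11a was 76.7% with 43, against a median of 52.7% over all windows. These 4 receptors thus had starts of unlike composition. A match is only a description of letters, and its absence from a window says nothing of a factor.

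Tnfrsf11a encodes RANK, the receptor by which osteoclast precursors are driven to differentiate and which prolongs the life of DCs. Its signal was 7.06, 7.82 and 9.60, highest in PDL2-positive cells. It was 5.81-fold higher there than in untreated PDL2-negative cells. The LPS difference of 0.76 did not reach 2-fold, although the second probe set, at 6.15, 7.17 and 8.78, gave 1.02. In the deposited values the first set gave 0.54 and the second 0.85, both under 2-fold. RANK is also borne by osteoclast precursors. Of the 3 osteoclast markers, Ctsk read 11.07, 10.30 and 6.43, Acp5 read 10.29, 11.60 and 7.91, and Calcr was below the floor on all arrays; their part in the difference of Tnfrsf11a was not tested.

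Ltbr encodes the lymphotoxin beta receptor, which directs lymphoid organ development and supports DC numbers in the spleen. It read 9.11, 8.85 and 8.34. The differences of -0.26 after LPS and -0.77 in PDL2-positive cells were both within 2-fold. Tnfrsf12a, the receptor of the cytokine TWEAK, read 7.56, 7.84 and 7.62 and was within 2-fold in every comparison. Its second probe set carried the same deposited value, 7.61, on all 3 arrays, with a range of 0.00 between them, as did 18.2% of all probe sets, so that set carries no information on a difference.

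Tnfrsf1a and Tnfrsf1b encode the receptors of TNF itself, TNFR1 with a death domain and TNFR2 without one. Tnfrsf1a read 10.65, 11.19 and 8.71. It was 3.84-fold lower in PDL2-positive than in untreated PDL2-negative cells, and the LPS difference was 0.53. Tnfrsf1b read 12.14, 13.34 and 11.42. LPS put it 2.30-fold higher by this probe set and 4.74-fold by the other, which read 9.80, 12.04 and 9.41. In PDL2-positive cells the differences of its sets were -0.72 and -0.39, within 2-fold. Both TNF receptors were therefore highest after LPS and lowest in PDL2-positive cells. The macrophage and monocyte markers above were lower on the same PDL2-positive array, and their part in the difference of Tnfrsf1a was not tested.

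Fas and Tnfrsf21 also carry death domains and went opposite ways. Fas, the receptor through which Fas ligand triggers apoptosis, read 8.42, 10.46 and 11.47. It was 4.12-fold higher after LPS and 8.33-fold higher in PDL2-positive cells, ranks 408 of 11000 and 182 of 10926. Tnfrsf21, death receptor 6, read 9.99, 7.64 and 5.78, the last just above the floor. It was 5.12-fold lower after LPS and 18.6-fold lower in PDL2-positive cells, where it was rank 93 of 10926 from the lowest. The second probe set of Tnfrsf21 read 7.72, 6.48 and 5.59 and gave smaller differences, -1.24 and -2.13, that were also past 2-fold. With the floor at 7.80, the 75th percentile, the difference of Tnfrsf21 in PDL2-positive cells was -2.19, since its low signal was then only a bound. The part of the macrophage and monocyte markers, lower on the same array, was not tested for this gene either. After LPS the macrophage markers C1qa (-1.16) and C1qc (-1.11) were lower and Fcgr1 (1.67) was higher, and their part in the LPS difference of Tnfrsf21 was not tested.

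**Figure D2:**
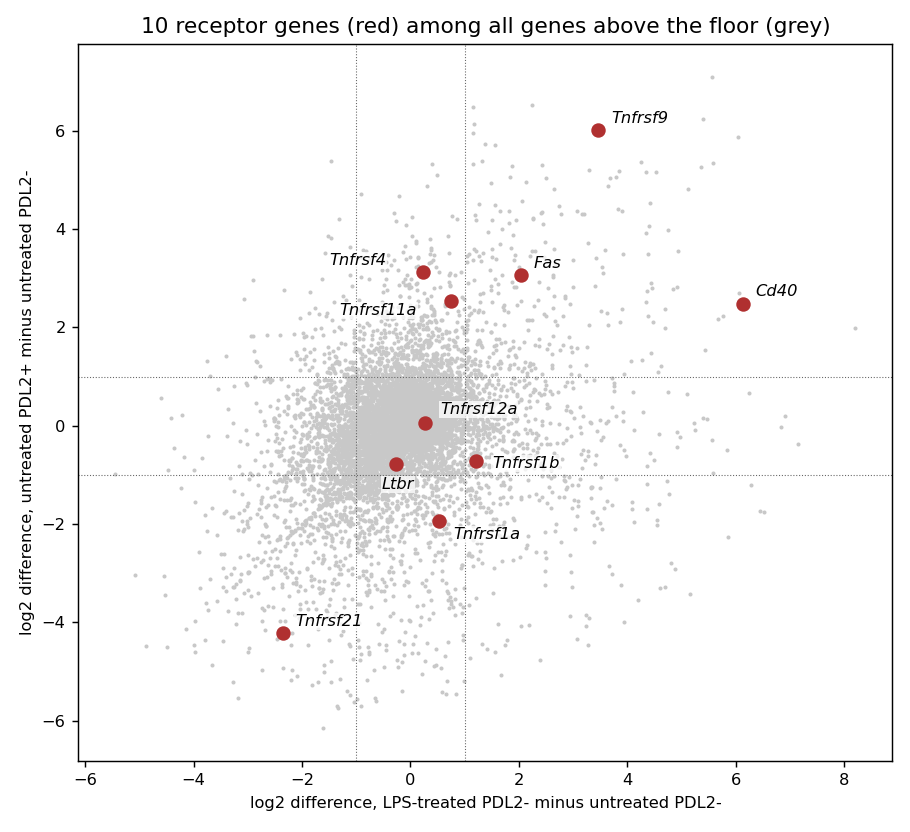
Log2 difference after LPS (horizontal axis) against log2 difference of PDL2-positive from PDL2-negative untreated cells (vertical axis) for the 10 receptors (red) and all genes above the floor in both comparisons (grey). Dotted lines mark 2-fold. Cd40 lies at 6.13 and 2.48, Tnfrsf9 at 3.47 and 6.01, and Tnfrsf21 at -2.36 and -4.21. The axes share an array, so the slope of the cloud is not a result.

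Set directly against each other, untreated PDL2-positive cells and LPS-treated PDL2-negative cells differed by 2-fold or more in the level of 8 of the 10 receptors, and Ltbr and Tnfrsf12a were within 2-fold. Tnfrsf4 was 7.43-fold, Tnfrsf9 5.82-fold and Tnfrsf11a 3.44-fold higher in PDL2-positive cells. Fas was 2.02-fold higher, but only 1.00 on the log2 scale in the deposited values and 0.97 with median centring, both under 2-fold. Cd40 was 12.5-fold, Tnfrsf1a 5.56-fold, Tnfrsf1b 3.79-fold and Tnfrsf21 3.62-fold lower. The second probe set of Tnfrsf21 gave -0.89 here, within 2-fold, so that call does not hold over both of its sets. The 4 receptors called higher compare with 15.6% of 11042 genes and the 4 called lower with 12.6%, and the median over the receptors was -0.37 beside -0.05 over all genes. Cell content also differed here, as the summed macrophage signal was 10.26 against 14.68, and its part was not tested.

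Ligands for these receptors were read from the same arrays, with none listed for Tnfrsf21. Tnfsf4, the ligand of OX40, read 5.95, 7.79 and 11.00. Like its receptor it was highest in PDL2-positive cells, 33.3-fold above untreated PDL2-negative cells, and it was also 3.58-fold higher after LPS. Tnfsf9, the ligand of 4-1BB, read 7.68, 10.72 and 5.29, the last below the floor. Ligand and receptor thus differed in opposite directions in PDL2-positive cells, where Tnfsf9 was at least 4.28-fold lower, and in the same direction after LPS, where Tnfsf9 was 8.22-fold higher. Tnf read 8.11, 12.48 and 6.41, which is 20.7-fold higher after LPS and 3.24-fold lower in PDL2-positive cells. Its order over the arrays was that of both TNF receptors.

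Ltb, which forms the ligand of Ltbr with lymphotoxin alpha, read 8.32, 7.39 and 6.95 and was 2.59-fold lower in PDL2-positive cells. Its LPS difference was -0.93, and -1.16 in the deposited values. Lta, which also binds both TNF receptors, was above the floor only after LPS (7.62), at least 4.12-fold higher. The ligands of CD40, RANK and Fas, Cd40lg, Tnfsf11 and Fasl, were below the floor on all 3 arrays, as was Tnfsf14, a second ligand of Ltbr. Tnfsf12, the ligand of Fn14, was not analysed here. Of 17 ligand genes listed, 13 had a probe set. Called higher after LPS were Tnfsf4, Tnfsf9, Tnf, Tnfsf8, Lta and Tnfsf10, the death ligand TRAIL (at least 11.6-fold). Lta, Tnfsf10 and Cd70 exceeded the floor after LPS and not in untreated PDL2-negative cells, so they could only differ upward, and Tnfsf9 could only differ downward in PDL2-positive cells. No count over the ligands is therefore read as a result.

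**Figure D3:**
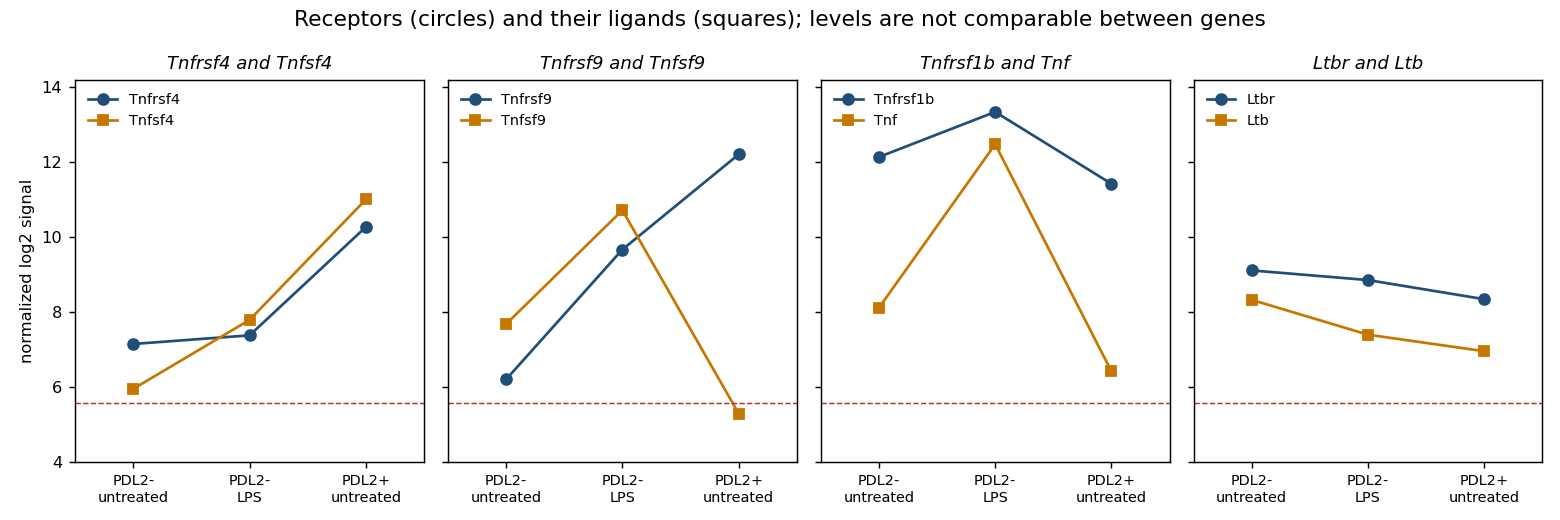
Normalized log2 signal (vertical axis) of 4 receptors (circles) and a ligand of each (squares) on the 3 arrays (horizontal axis), with the floor dashed. Tnfrsf4 and Tnfsf4 both peak in PDL2-positive cells, at 10.27 and 11.00, whereas Tnfsf9 lies at 5.29 where Tnfrsf9 is at 12.21. Probe sets differ in brightness, so the height of a receptor cannot be set against that of its ligand.

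The rest of the superfamily was mostly near or below the floor. Of 18 other receptor genes listed, 17 had a probe set and 8 were above the floor in either comparison. After LPS 0 were higher and 0 lower by 2-fold, against 9.17% and 13.8% of all genes, with a median of -0.07. This count has no test, since each group has 1 array. Tnfrsf18, which encodes GITR, another costimulatory receptor of T cells, differed by -0.85 after LPS, and by -1.05 in the deposited values and -1.02 with median centring, both past 2-fold. Of the 8, 1 was higher in PDL2-positive cells and 2 were lower, against 10.1% and 13.0% of all genes. With only 8 genes, these counts are not read as a result. The higher gene was Tnfrsf18, at 7.51, 6.65 and 9.38, which is 3.65-fold. The lower genes were Tnfrsf13b, at 9.15, 8.57 and 6.71, the TACI receptor of the B cell factors BAFF and APRIL (5.43-fold), and Tnfrsf22, a decoy receptor of TRAIL (2.90-fold). A second probe set of Tnfrsf22 gave -0.09, and the mean over its sets -0.25, so that call does not hold over its probe sets.

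Genes for signalling downstream of the receptors were either higher or within 2-fold in both of these comparisons. Of 20 adaptor and signalling genes listed, 17 had a probe set and all of these were above the floor. LPS-treated cells had 9 of 17 higher and 0 lower (median 1.56), and PDL2-positive cells had 7 higher and 0 lower (median 0.78). Over all genes 9.17% were higher and 13.8% lower after LPS, and 10.1% and 13.0% in PDL2-positive cells. Traf1, an adaptor that TNFR2, 4-1BB and CD40 recruit, read 6.61, 11.74 and 11.42, 34.9-fold higher after LPS and 28.0-fold in PDL2-positive cells. Map3k14, the NIK kinase of the non-canonical NF-kB pathway, read 6.97, 8.53 and 11.46. It was 22.4-fold higher in PDL2-positive cells and 2.94-fold after LPS. On the log2 scale these are 4.49 and 1.56, where a second probe set gave 2.94 and 0.92. Birc2, the ubiquitin ligase cIAP1, which with TRAF2 keeps NIK low, read 8.18, 10.08 and 12.05 and was 14.6-fold higher in PDL2-positive cells.

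Other adaptors differed among themselves in which arrays were high. Traf6, the adaptor of CD40 and RANK, read 7.72, 7.86 and 9.79, and PDL2-positive cells were above LPS-treated cells by 1.94. Of its 4 probe sets above the floor, 3 were past 2-fold there and the lowest gave 0.78. Ikbkg, the NEMO subunit of the IkB kinase, read 8.11, 10.44 and 8.62, and PDL2-positive cells were below LPS-treated cells by a log2 difference of -1.82. The 6 probe sets of Ikbkg ran from -2.45 to -0.53 there and from 0.68 to 2.70 after LPS. In each of these comparisons 4 of the 6 gave the same call. Rnf31, the catalytic subunit of the linear ubiquitin ligase, read 7.98, 10.02 and 8.53. Traf5 was 3.62-fold higher after LPS, but the mean of its probe sets gave 0.94. Traf2 was 5.39-fold higher after LPS and 2.08-fold in PDL2-positive cells, where the deposited values gave 1.00 after rounding, just under the threshold. The death domain adaptors Tradd and Fadd were within 2-fold in both comparisons, from -0.21 to 0.19.

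Cflar, which encodes the caspase-8 inhibitor c-FLIP, was higher by 3.07 after LPS and 1.57 in PDL2-positive cells, and its 5 probe sets ran from 0.52 to 4.90 and from 0.66 to 3.13. Casp8 itself read 10.31, 11.13 and 9.36, within 2-fold of untreated PDL2-negative cells on both arrays. Of 9 NF-kB subunits and brakes listed, 8 had a probe set. After LPS 6 were higher and in PDL2-positive cells 5, with 0 lower in either (medians 2.40 and 1.55), beside the same shares of all genes, 9.17% and 10.1% higher and 13.8% and 13.0% lower. These counts depend on the probe set used. Nfkbia in PDL2-positive cells was within 2-fold at 0.67, but the mean of its sets gave 1.17. Nfkb2 after LPS and Tnfaip3 in PDL2-positive cells were called higher, but another set of each gave 0.64 and 0.97. Relb, the non-canonical partner of p52, read 7.79, 10.22 and 12.13, and Tnfaip3, the brake A20, read 9.59, 13.86 and 10.93. Relb was thus highest in PDL2-positive cells and Tnfaip3 after LPS.

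TNF receptors are also cut from the cell surface by the protease ADAM17, which the iRhom proteins bring to the surface. Adam17 read 11.03, 11.45 and 9.50 and was 2.89-fold lower in PDL2-positive cells. Rhbdf2, which encodes iRhom2, read 8.66, 10.82 and 8.29 and was 4.45-fold higher after LPS. Of the 5 shedding genes, 1 was higher and 0 lower after LPS, against 9.17% and 13.8% of all genes. PDL2-positive cells had 0 higher and 1 lower, against 10.1% and 13.0%. The other 4 in each comparison (which included Adam10, Rhbdf1 and Timp3) were within 2-fold. With only 5 genes, these counts are not read as a result.

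**Figure D4:**
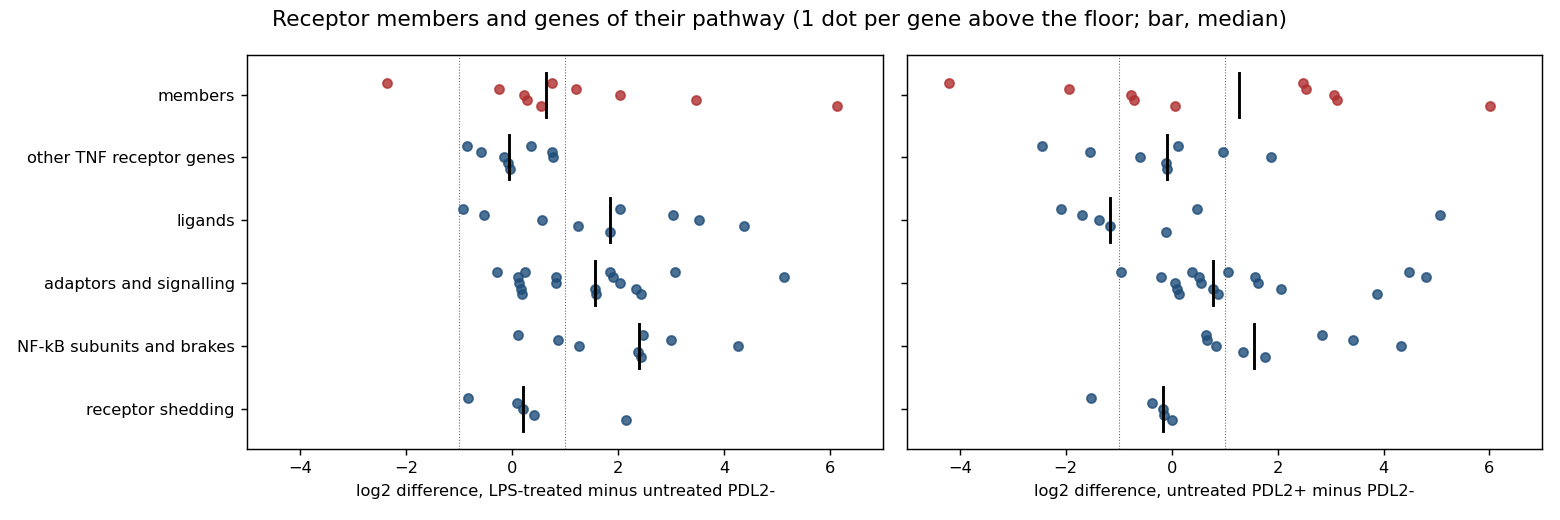
Log2 difference (horizontal axis) for LPS treatment (left) and for PDL2-positive cells (right) for the receptors (red) and the listed genes of their pathway (blue), with 1 dot per gene that exceeded the floor on either array compared. Bars are medians of the genes drawn and dotted lines mark 2-fold. Genes at the floor on 1 array, such as Lta and Tnfsf10, are drawn at their bound. The adaptor and NF-kB lists have no gene called lower on either side.

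Genes with the pattern most like a receptor were sought for receptors past 2-fold in any comparison, which leaves out Ltbr and Tnfrsf12a. They were taken as those nearest in the plane of the LPS and PDL2 differences, over 9850 genes above the floor on all 3 arrays. For Cd40 the nearest was Ch25h at a distance of 0.21 on the log2 scale, then Ccnd2 (0.45) and Slamf1 (0.56). Tnfrsf9 had no gene within 0.3, and the nearest was Fscn1 (0.91), followed by Serpinb9 (0.99) and Nr4a3 (1.01). Tnfrsf4 was nearest to Ppdpf (0.16), Tnfrsf11a to Depdc7 (0.04), Fas to Ly75 (0.06) and Tnfrsf21 to Atp6v0d2 (0.24). For Tnfrsf1a and Tnfrsf1b the nearest were Abcc4 (0.08) and Tm9sf4 (0.07), but 25 and 38 genes lay within 0.3 of them. By the probe sets used, Cd40 and Tnfrsf21 had 1 and 2 genes within 0.3, and Fas, Tnfrsf11a and Tnfrsf4 had 4, 8 and 11. The second set of Tnfrsf21 gave -1.24 and -2.13 in place of -2.36 and -4.21. That of Tnfrsf1b gave 2.24 and -0.39 in place of 1.20 and -0.72. The places of these 2 receptors in the plane thus depend on the probe set. This likeness rests on 3 arrays. Distances of 0.24 or less are below the robust SD between probe sets, 0.41 for LPS and 0.29 for PDL2. Which gene is nearest is therefore not resolved at such distances.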

How the data were processed

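Total RNA was hybridized with a biotin label to 3 arrays, 1 per group, per the labels. Deposited are log2 values that the authors made, 1 for each probe set on each array; the scale was read from their range. The background correction, normalization and summary method are not given in the sources used here. From 38546 probe sets, 13 controls were left out and 38533 were quantile-normalized. The platform annotation named 1 gene for 33987 probe sets, of which 33974 were among those normalized. It named several genes for 449, which were not used. Symbols were updated by Entrez number through RefSeq (GRCm38.p6). Each gene was read from its probe set with the highest mean. Values below the floor (the median, 5.58) were raised to it, and a fold against a gene at the floor is a lower bound, written "at least". The robust SD is 1.4826 times the median absolute deviation. Genes tested in a comparison exceeded the floor on either of its arrays. No p-value was computed. The receptors and lists were chosen with earlier results of these data known. The named genes are all 10 receptors and, from the lists, genes past 2-fold or named for their role. Marker lists covered dendritic cells, macrophages, monocytes, neutrophils, T, B and NK cells, mast cells and basophils, and osteoclasts. Of the 4 mast cell and basophil markers, Mcpt4 and Ms4a2 were below the floor on all arrays. The other markers of that list were above it on all 3, Cpa3 at 7.21, 7.43 and 7.45 and Mcpt8 at 7.61, 7.83 and 7.91. Listed genes without a probe set that names them alone were not analysed here. The script was tested on simulated data. Python 3.11.15, numpy 2.4.6 and pandas 2.3.3 were used.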

Additional observations from a re-analysis of the deposited data

How the results depend on the processing

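Every call of a receptor kept its direction and its side of the threshold with values as deposited and with median centring, except Fas between PDL2-positive and LPS-treated cells (1.00 and 0.97). All 30 receptor calls were kept with no floor and with the mean of probe sets, which lowered Tnfrsf9 in PDL2-positive cells from 6.01 to 3.71 by including its set below the floor. With the floor at the 75th percentile the 27 values that could be given kept their calls, some as bounds (Tnfrsf9 4.40 in PDL2-positive cells and 1.86 after LPS); Tnfrsf4 after LPS, Tnfrsf12a between the untreated arrays and Tnfrsf21 between PDL2-positive and LPS-treated cells gave none. At 1.5-fold, 3 more values were called, so that the receptors lower in PDL2-positive cells numbered 4, with Tnfrsf1b and Ltbr added. At 3-fold Tnfrsf1b after LPS and Fas between PDL2-positive and LPS-treated cells were no longer called. The median of all genes after LPS was 0.02, against -0.09 in the deposited values.

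Over all genes, the counts higher and lower after LPS were 1009 and 1521, with 1660 and 2708 at 1.5-fold, 581 and 646 at 3-fold, and 910 lower with the higher floor. In PDL2-positive cells they were 1102 and 1416, with 1939 and 2229 at 1.5-fold and 587 and 803 at 3-fold. Between PDL2-positive and LPS-treated cells they were 1727 and 1391, with 1099 higher at the higher floor, 2767 higher at 1.5-fold, and 886 and 883 at 3-fold. Fewer genes were above the higher floor. No paired analysis was possible because each group has 1 array. Signals close to the floor, as those of Tnfrsf21 in PDL2-positive cells, limit what can be read.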

Other observations

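Several receptor genes of the superfamily lie side by side in the genome, as ordered in the RefSeq table. Tnfrsf4 and Tnfrsf18 have 0 protein-coding genes between them, and both were higher in PDL2-positive than in untreated PDL2-negative cells, with log2 differences of 3.12 and 1.87. After LPS their differences were 0.23 and -0.85. Ltbr and Tnfrsf1a are separated by 1 protein-coding gene, and in PDL2-positive cells they differed by -0.77 and -1.94. Tnfrsf1b and Tnfrsf8 are also neighbours, with 0 genes between them. Tnfrsf8, which encodes CD30, read 5.68, 6.42 and 5.17, so it was near or below the floor on every array except after LPS, where Tnfrsf1b was also highest.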
